A study of Homo sapiens with 19 samples.

Results

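The cells described here come from human liver organoids of the TGFB1 experiment and were chosen for transcripts of 5 plasma protein genes of the liver. A cell entered when 500 or more genes were detected in it, when no more than 20% of its counts were mitochondrial, and when AFP, AMBP, AGT, FGB and SERPINA1 together gave at least 5 UMIs (unique molecular identifiers, each a captured transcript) and at least 0.3% of its UMIs. The rule took 14053 of the 31026 cells kept in 4 libraries, out of 120240 kept cells in the 19 libraries of the series. The remaining 16973 kept cells are called the other cells. The organoids were grown from W01, an established human pluripotent stem cell line, wild type, and were kept on an orbital shaker. They were cultured for 20 days, and TGF-β1 (transforming growth factor β1, the cytokine encoded by TGFB1) was then given at 10 ng/ml for 5 days in 2 libraries. The controls, labelled as controls for TGFB1, were another 2 libraries, and all 4 were collected on day 25. The labels do not say what the control organoids received. Nothing in the labels says whether replicates were separate differentiations, so p-values measure the spread between these libraries, which may be technical. All libraries rest on a single cell line.

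Hepatocytes secrete most plasma proteins, among them albumin (ALB), α1-antitrypsin (SERPINA1), fibrinogen (FGA, FGB, FGG), transferrin (TF) and the apolipoproteins. Immature hepatocytes make α-fetoprotein (AFP) in quantity, and gut epithelium shares several of these genes with the liver. TGF-β binds a receptor pair of type I and type II kinases, which phosphorylate SMAD2 and SMAD3, and in epithelial cells it is known for growth arrest, induction of matrix genes and epithelial-mesenchymal transition.

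The selected cells were not evenly sampled. Control replicate 1 stood apart: its selected cells held a median of 1606 UMIs, against 5904 in control replicate 2 and 7482 and 5299 in TGFB1 replicates 1 and 2. Median mitochondrial shares were 4.39%, 7.11%, 4.93% and 6.70% in the same order. Summed over selected cells, the libraries held between 3983226 and 30262112 UMIs. Between the control replicates 15.8% of genes differed by more than 2-fold, against 2.90% between the TGFB1 replicates. Any pair of libraries shared 10 to 34 cell barcodes, of which 1 to 3 belonged to selected cells in both.

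SERPINA1 carried the rule. It gave 59.0% and 68.7% of the rule's UMIs in control replicates 1 and 2, and 95.8% and 95.2% in TGFB1 replicates 1 and 2. AFP gave 26.1% and 11.5% in the controls against 1.48% and 1.97% with TGFB1, and AMBP (the precursor of α1-microglobulin) gave 10.8% and 16.7% against 1.30% and 1.63%. With only 1 of the 5 genes detected, a cell could still pass: that held for 20.4% and 7.88% of selected control cells and for 30.1% and 37.6% of selected TGFB1 cells. The rule therefore took cells with a mixture of these transcripts from the controls and cells chosen almost entirely by SERPINA1 after TGFB1. Whether a gene changed within cells of a kind, or whether the rule took other cells in each group, cannot be told apart for the comparisons that follow, and for several genes the value in cells chosen by SERPINA1 alone is given too.

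Of the kept cells, the rule took 21.5% (2065 of 9615, 95% exact binomial interval 20.7 to 22.3) in control replicate 1 and 50.9% (4326 of 8505, 49.8 to 51.9) in control replicate 2. It took 62.8% (3767 of 6002, 61.5 to 64.0) and 56.4% (3895 of 6904, 55.2 to 57.6) in TGFB1 replicates 1 and 2. These intervals cover counting error only. Both TGFB1 shares lay above both control shares, and the controls lay further apart than control replicate 2 did from either TGFB1 library. The difference was 23.4 percentage points (control 36.2% ± 20.8, TGFB1 59.6% ± 4.49, SD, n = 2 each), with an exact two-sided permutation p of 0.333, the smallest that 2 against 2 libraries allow. Without control replicate 1 the difference was 8.73 points, and without control replicate 2 it was 38.1 points. Thinned to 1000 UMIs a cell, the shares averaged 24.0% ± 11.7 in controls and 42.2% ± 4.44 with TGFB1 (SD, n = 2 each), with 2927 and 190 kept cells of control replicates 1 and 2 and 127 and 101 of TGFB1 replicates 1 and 2 left out as shallower.

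The share turned on SERPINA1. Counting SERPINA1 alone with the same minimum, 901 and 2509 control cells passed against 3611 and 3641 TGFB1 cells, which is 19.4% ± 14.2 against 56.5% ± 5.25 of kept cells (SD, n = 2 each). Counting the other 4 genes alone, the order turned around: 496 (5.16%) and 820 (9.64%) control cells passed, against 24 (0.400%) and 29 (0.420%) TGFB1 cells, a difference of -6.99 points. Cells near the limit were many: 66.5% and 64.8% of selected control cells and 51.2% and 55.1% of selected TGFB1 cells had under 0.6% of their UMIs from the 5 genes. Just inside the limit, at 0.3 to 0.35%, lay 293 and 672 control cells and 335 and 433 TGFB1 cells. Just outside it, at 0.25 to 0.3% with at least 5 UMIs, lay 298 and 660 control cells and 318 and 457 TGFB1 cells. The minimum of 5 UMIs alone kept out 814 and 39 control cells and 9 and 24 TGFB1 cells that had reached 0.3%. It thus bore mostly on control replicate 1, the shallowest library. Exactly 5 UMIs were held by 359 and 21 selected control cells and by 11 and 12 selected TGFB1 cells.

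**Figure D1:**
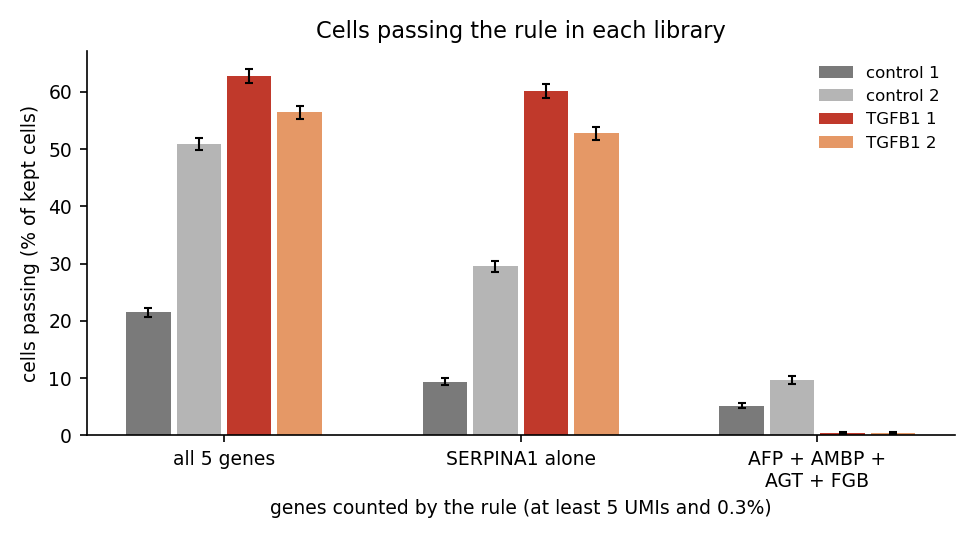
Share of kept cells (%) that passed the rule in each library, with all 5 genes, with SERPINA1 alone and with AFP, AMBP, AGT and FGB alone; error bars are 95% exact binomial intervals. The TGFB1 libraries are highest for all 5 genes (62.8% and 56.4%) and for SERPINA1 alone, and lowest for the other 4 genes (0.400% and 0.420%).

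Levels of the rule genes follow as a description, with no test, since they chose the cells. All levels are CPM, the UMI counts of the summed selected cells scaled to the same total in every library. SERPINA1, the main inhibitor of neutrophil elastase in plasma, stood at 3224 and 4124 CPM in control replicates 1 and 2 and at 6722 and 6234 CPM with TGFB1. AFP stood at 1429 and 692 CPM in controls and 103.6 and 129 CPM with TGFB1, and AMBP at 591 and 1004 CPM against 91.4 and 107 CPM. FGB, the fibrinogen β chain, stood at 154 and 139 CPM against 25.8 and 26.8 CPM. AFP, AMBP and FGB were thus lower in both TGFB1 libraries than in either control, SERPINA1 was higher, and AGT, the precursor of angiotensin, overlapped between the groups (70.3 and 42.5 CPM against 73.6 and 53.7 CPM).

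Over all kept cells, chosen or not, SERPINA1 stood at 1533 and 2656.5 CPM in controls and 4994 and 4129.5 CPM with TGFB1. AFP stood at 521 and 431 CPM against 79.0 and 88.6 CPM, and AMBP at 332 and 715 CPM against 71.7 and 76.7 CPM. FGB stood at 63.4 and 92.0 CPM against 21.3 and 20.0 CPM, and AGT at 40.2 and 36.9 CPM against 71.6 and 51.6 CPM. The tests given here used, for each rule gene, cells chosen by the other 4. In such cells AFP stood at 642 and 526 CPM in controls and 95.2 and 115 CPM with TGFB1, and fell by 2.26 in log2 terms (SE 0.27, edgeR adjusted p = 0.00172). AMBP fell by 2.49 (SE 0.40, adjusted p = 0.00624) and FGB fell by 2.11 (SE 0.23, adjusted p = 0.00156), both without overlap between the groups. AGT did not pass the test (log2 difference 0.53, SE 0.25, adjusted p = 0.189). For each of these genes the other 4 include SERPINA1, which dominated the choice of cells with TGFB1 more than in controls. The tests therefore cannot tell a change within cells from a choice of other cells in each group. SERPINA1 was not tested in this way, because the other 4 genes took fewer than 50 cells from each TGFB1 library. Its level in those cells overlapped between the groups, at 1230 and 2135 CPM in controls and 5682 and 1634 CPM with TGFB1.

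The sequences next to these genes are shown because AFP, FGB, ALB and FGA moved one way in the selected cells while SERPINA1 stood the other way, and the short run GTTAAT, a homeodomain half-site known from promoters of liver genes, lies next to all 5. It was searched on both strands (GTTAAT or ATTAAC) in the 150 bases before each start listed by RefSeq (GRCh38.p14). Capitals mark the match, and each line gives 30 bases 5′ to 3′ on the gene's strand.
AFP, chr4:73436077-73436106, plus strand, match 132 bases before the start: aaccgctatgctGTTAATtattggcaaatg
FGB, chr4:154562917-154562946, plus strand, match 51 and 82 bases before the 2 listed starts: caaaaattaaatATTAACtaaggaaaggta
SERPINA1, chr14:94388661-94388690, minus strand, match 76 bases before the second listed start: ggggtgaccttgGTTAATattcaccagcag
ALB, chr4:73404214-73404243, plus strand, match 61 bases before the start: aagatgagtctaGTTAATaatctacaatta
FGA, chr4:154590777-154590806, minus strand, match 52 bases before the start: acaaagccaatgATTAACcaaacctcttgc
The 2 listed SERPINA1 starts lie 2033 bases apart. In GENCODE v44 the window of the second overlaps a SERPINA1 exon, that of ALB overlaps an ALB exon, and that of AFP overlaps the AFP gene but none of its exons; the windows of the first SERPINA1 start and of AMBP and AGT held no match. Of 35116 listed starts 3.52% held the run in such a window, against 2.31% of 16552 starts of genes tested, 4.96% of 1532 starts of genes called lower in the selected cells and 2.23% of 1657 starts of genes called higher. A match is a run of letters and not a measured binding site.

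The label of hepatocyte-like cells was checked against markers outside the rule, and the data went against it in part. ALB was at 11.3 and 4.38 CPM in selected control cells and 0.165 and 0.176 CPM with TGFB1, FGG reached at most 0.611 CPM and TF at most 1.00 CPM in any library. TTR, the thyroid hormone carrier transthyretin, stood at 509 and 747 CPM in controls and 203 and 252 CPM with TGFB1, and HNF4A, a master regulator of hepatocyte genes, at 55.2 and 32.8 CPM and 39.1 and 32.5 CPM. At 1000 UMIs a cell, ALB was detected in 0.514% and 0.257% of selected control cells, TTR in 35.1% and 39.6%, and SERPINA1 in 87.4% and 90.1%. The epithelial genes KRT19 and EPCAM were detected in 41.8% and 65.6%, and in 42.5% and 58.9%, of the same cells. The cells are therefore named by the rule and not as a cell type.

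SERPINA1 reached well beyond the selected cells. At 1000 UMIs a cell it was detected in 47.5% to 57.9% of the other cells, against 98.8% and 98.7% of selected TGFB1 cells. As a background, cells chosen by the mesenchymal genes DCN, LUM, COL3A1, PDGFRA and PDGFRB with the same minimum (220 to 396 cells a library, median 1642 UMIs in control replicate 1 and 6453.5 to 7355 in the others) had SERPINA1 in 8.88% to 11.01% at 1000 UMIs, and at 150 to 195 CPM. Unthinned, SERPINA1 was found in 17.6% to 32.6% of those cells and in 67.1% to 85.8% of the other cells. Between 1 and 6 selected cells a library also passed the mesenchymal rule, at most 0.291% of them. Selected and other cells were set side by side over 2388 genes outside the rule at 50 CPM or more in the selected cells of every library. In all 4 libraries 2 of them, APOA1 (apolipoprotein A-I of high density lipoprotein) and CTSE (cathepsin E), were at least 2-fold higher in selected cells. By the same measure 0 were at least 2-fold lower, but that minimum leaves out genes low in the selected cells. COL3A1, left out, stood at 31.4 and 11.6 CPM in selected control cells and 78.1 and 42.5 CPM in selected TGFB1 cells. In the other cells it stood at 245 and 372 CPM and at 775 and 876 CPM. The cells were chosen by their counts, so this contrast is a description.

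In the selected cells genes of many groups stood at other levels with TGFB1. Hepatocyte secreted proteins, gut epithelial genes and cell cycle genes were mostly lower, while KRT7, vimentin, fibronectin, collagens and other TGF-β targets were higher. Here and below, a fall or rise is a difference between the selected cells of the groups. It cannot be told from a choice of other cells by the rule. Of 15812 genes tested, 2967 (18.8%) passed edgeR's quasi-likelihood test at a Benjamini-Hochberg adjusted p of 0.05, 1470 (9.3%) higher and 1497 (9.47%) lower with TGFB1. DESeq2 called 3021 (19.1%), 1439 of them (9.1%) lower. The median log2 fold change of all genes tested was -0.01. Leaving out a library moved the count each time: it was 5892 or 7158 when control replicate 1 or 2 was left out, and 1525 or 1851 when TGFB1 replicate 1 or 2 was left out. Where an arm is left with 1 library, its spread is taken from the other group. Counts of list members without a library, given below, move with these totals and say little of a list by themselves. For the list counts in the selected cells with every library, the shares to set beside them are 9.3% higher and 9.47% lower over all genes.

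**Figure D2:**
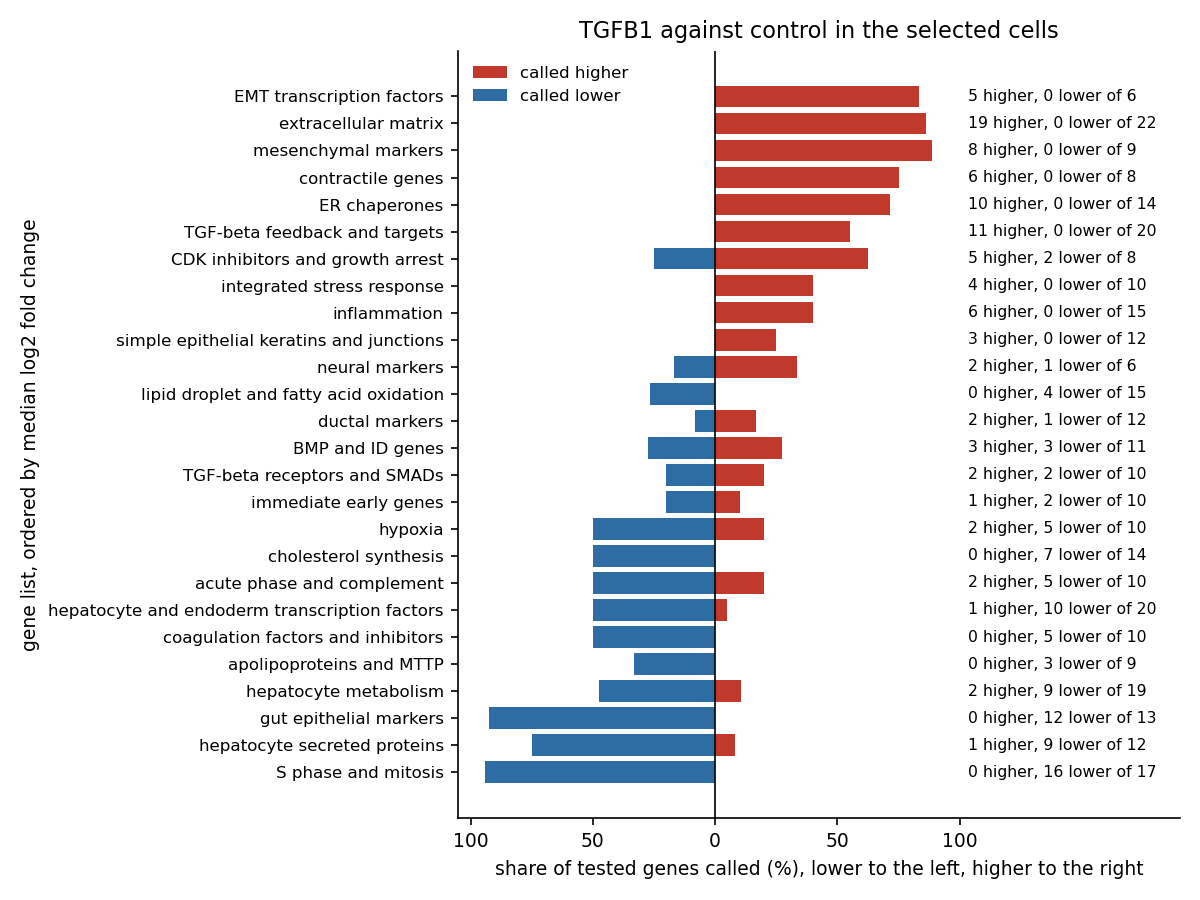
Share of the tested genes of each list (%) called lower (left) or higher (right) with TGFB1 in the selected cells by edgeR at an adjusted p of 0.05, for lists with at least 6 genes tested, ordered by median log2 fold change. Cell cycle, hepatocyte secreted and gut epithelial genes lie at the bottom with 16 of 17, 9 of 12 and 12 of 13 lower, and matrix genes near the top with 19 of 22 higher.

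Among hepatocyte secreted proteins, 9 of the 12 tested fell and 1 rose, with a median log2 fold change of -2.61 against -0.01 for all genes; 13 of the 25 listed were too low to test. ALB was low in controls already, and its change was -5.13 in log2 terms (SE 0.58, edgeR adjusted p = 0.00151). ITIH2, a carrier of hyaluronan, had 159 and 144 CPM in controls and 9.55 and 9.38 CPM with TGFB1 (log2 -3.81, SE 0.23, adjusted p = 0.000435), and the groups lay far apart. VTN (vitronectin) had 332 and 317 CPM against 40.7 and 49.6 CPM, and GC (the vitamin D carrier) 176 and 103 CPM against 14.1 and 20.0 CPM, and both fell (adjusted p = 0.000897 and 0.00146). FGA, the fibrinogen α chain, stood at 18.3 and 21 CPM against 2.31 and 1.59 CPM (log2 -3.16, SE 0.29, adjusted p = 0.000778; log2 -2.50 in cells chosen by SERPINA1 alone). TTR fell less (log2 -1.30, SE 0.33, adjusted p = 0.0345) and lost its call without either TGFB1 replicate (adjusted p = 0.396 and 0.187) and when cells were chosen by SERPINA1 alone (log2 -1.11, adjusted p = 0.0621). A1BG, a plasma glycoprotein, was the member that rose (24.9 and 24.1 CPM to 37.3 and 41.2 CPM, adjusted p = 0.028).

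Apolipoproteins and MTTP, which loads lipid onto apolipoprotein B, gave 0 higher and 3 lower of 9 tested. APOB fell (39.4 and 22.4 CPM to 2.58 and 1.06 CPM, log2 -3.82, SE 0.43, edgeR adjusted p = 0.00152), as did MTTP (86.9 and 46 CPM to 10.6 and 10.5 CPM, log2 -2.43, adjusted p = 0.00193) and APOC1 (136 and 52.1 CPM to 17 and 24 CPM, adjusted p = 0.0175). APOA1 was at 191 and 281 CPM in controls and 125 and 109 CPM with TGFB1, lower in both TGFB1 libraries but not past the threshold (log2 -0.84, SE 0.30, adjusted p = 0.0956). DESeq2 called it lower (adjusted p = 0.0434). In cells chosen by SERPINA1 alone its value was 0.25 (adjusted p = 0.831), on the other side of 0. APOA2 had 267 and 82.2 CPM against 45.6 and 70.4 CPM, with controls further apart than control replicate 2 was from either TGFB1 library (log2 -1.35, edgeR adjusted p = 0.0992). It was called lower by DESeq2 (adjusted p = 0.0105) and with a replicate block in edgeR (adjusted p = 0.0188). In cells chosen by SERPINA1 alone, APOA2 stood at a log2 change of -0.24 (edgeR adjusted p = 0.587), MTTP at -1.12 (adjusted p = 0.0274) and APOB at -2.92 (adjusted p = 0.0182). APOE, which macrophages also make, overlapped between the groups at 961 and 1370.4 CPM against 1190.4 and 1245 CPM (adjusted p = 0.655). Without control replicate 1 the count of lower genes was 7 of 9, and without control replicate 2 or TGFB1 replicate 1 it was 5.

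**Figure D3:**
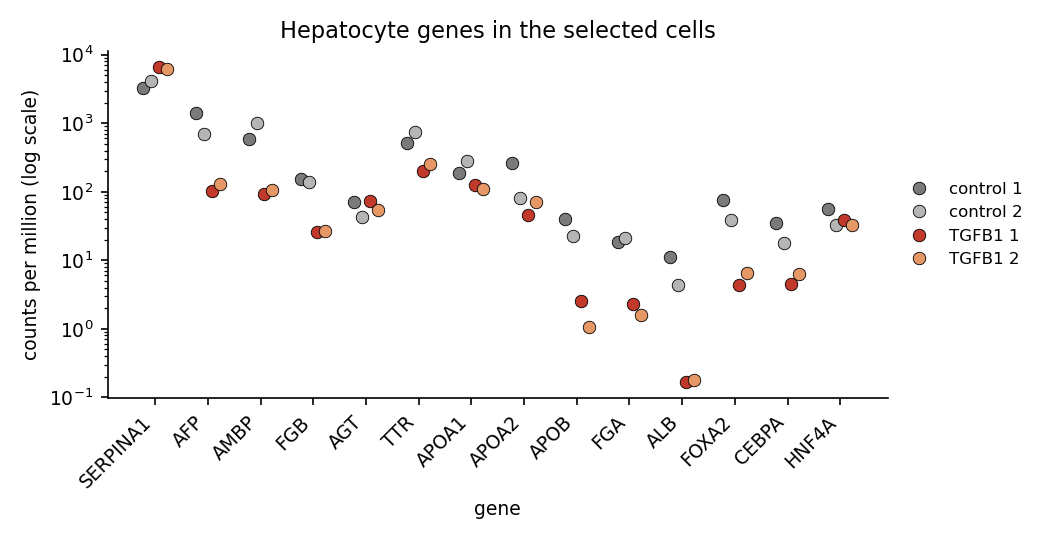
Level (CPM, log axis) of the 5 rule genes and of hepatocyte genes outside the rule in the selected cells, one point per library. SERPINA1 is higher in both TGFB1 libraries, AFP, AMBP, FGB, TTR, APOA1, APOA2, APOB, FGA, ALB, FOXA2 and CEBPA are lower in both, and AGT and HNF4A overlap between the groups.

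Coagulation factors and inhibitors gave 5 lower and 0 higher of 10 tested (median -1.08, also with PLG at its bound). CPB2, the fibrinolysis inhibitor, fell from 12.6 and 13.4 CPM to 0.496 and 0.617 CPM (log2 -4.39, SE 0.31, edgeR adjusted p = 0.000486), and F5 from 69.5 and 54.3 CPM to 13 and 14.6 CPM (adjusted p = 0.00135). PLG (plasminogen) had 46 UMIs in controls and 0 with TGFB1, at least 25.5-fold lower with a floor of 3 counts over the TGFB1 group. Protein C (PROC) and protein S (PROS1) stood at 16.1 and 25.2 CPM and 57.5 and 48.1 CPM in controls and at 18.9 and 22.3 CPM and 47.5 and 47.8 CPM with TGFB1, and neither passed (adjusted p = 0.812 and 0.896). Of 10 acute phase and complement genes, 5 fell and 2 rose. C3, C5 and CFI of the complement system fell (C5 from 14.8 and 12.6 CPM to 1.16 and 0.881 CPM, log2 -3.54, adjusted p = 0.000562; CFI from 55.5 and 60.3 CPM to 10.8 and 7.97 CPM, adjusted p = 0.00105), CFB and MASP1 did not pass, and the serum amyloid genes SAA1 and SAA2 rose (SAA2 from 0.753 and 1.19 CPM to 14.1 and 4.71 CPM, adjusted p = 0.0116). SAA1 and SAA2 are near-identical copies, so the split of reads between them is uncertain. ORM2, which has a near-identical copy ORM1, had 1 UMI with TGFB1 and a ratio of TGFB1 to control of 0.0261 (95% exact counting interval 0.000634 to 0.161).

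Of 19 metabolic genes tested, 9 fell and 2 rose (median -1.71). FABP1, the liver and intestinal fatty acid binding protein, fell most in level, from 661 and 452 CPM to 15.1 and 11.9 CPM (log2 -5.16, SE 0.32, edgeR adjusted p = 0.000435), with the TGFB1 libraries far under both controls. ADH1A, an alcohol dehydrogenase, fell from 8.03 and 2.69 CPM to 0.033 and 0.176 CPM (log2 -5.31, adjusted p = 0.00427). The 2 that rose were UGT2B7, a glucuronosyltransferase (14.1 and 15.5 CPM to 33.1 and 30.9 CPM, adjusted p = 0.00747), and PCK2, the mitochondrial PEP carboxykinase (10.5 and 9.48 CPM to 22.8 and 15.9 CPM, adjusted p = 0.021). Mature genes such as ARG1, CYP7A1, CYP8B1, G6PC and MBL2 had 0 counts in every library, and CYP3A4 reached at most 0.044 CPM. Of 3 bile acid transport genes tested, 0 passed edgeR's test or DESeq2, when 5376 genes in all had an unadjusted p under 0.05; without control replicate 1, 3 of 5 were lower, and without control replicate 2, 2 of 3.

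Transcription factors of liver and endoderm gave 10 lower and 1 higher of 20 tested (median -0.90). ONECUT1 fell from 138 and 138 CPM to 9.65 and 10.3 CPM (log2 -3.61, SE 0.24, edgeR adjusted p = 0.000435) and FOXA2, a pioneer factor of endoderm, from 76.3 and 38.4 CPM to 4.39 and 6.52 CPM (log2 -3.17, SE 0.35, adjusted p = 0.00147). CEBPA, which drives albumin and other hepatocyte genes, fell from 34.9 and 18 CPM to 4.56 and 6.25 CPM (log2 -2.04, SE 0.33, adjusted p = 0.00599). Its partner CEBPB was the 1 factor that rose (67.3 and 59.8 CPM to 111 and 101 CPM, adjusted p = 0.0256). HNF4A overlapped between the groups (log2 -0.08, SE 0.26, adjusted p = 0.861). Without TGFB1 replicate 1, 5 of 20 were lower, and without control replicate 2 it was 16. In cells chosen by SERPINA1 alone 6 of 20 were lower, and CEBPA was no longer called (log2 -0.64, adjusted p = 0.185).

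Gut epithelial markers moved with the hepatocyte genes. Of 13 tested, 12 fell and 0 rose (median -2.37), and the summed level of the 15 listed was 1356 and 1139 CPM in selected cells of control replicates 1 and 2, against 201 and 183 CPM with TGFB1. TFF3, a goblet cell peptide, stood at 402 and 307 CPM against 11.4 and 12.1 CPM (log2 -4.72, SE 0.27, edgeR adjusted p = 0.000435), and PHGR1 at 20.8 and 22.4 CPM against 0.859 and 0.352 CPM (log2 -4.93, adjusted p = 0.000542). CDX2, which specifies intestine, fell from 44.2 and 56.5 CPM to 17.5 and 18.1 CPM (adjusted p = 0.00996). In the 496 and 820 control cells chosen without SERPINA1, TFF3 stood at 1024 and 918 CPM, CDX2 at 84.9 and 123 CPM and ALB at 40.9 and 19.2 CPM, each above its level in all selected control cells. In the 24 and 29 TGFB1 cells chosen without SERPINA1, TFF3 stood at 405 and 526 CPM, and CDX2 at 99.6 and 173 CPM, so that TFF3 was lower than in the controls and CDX2 overlapped between the groups. ALB had too few UMIs in these cells to compare. In the same cells APOB stood at 448 and 108 CPM, against 107 and 89.9 CPM in controls, so TGFB1 replicate 2 lay level with control replicate 1. APOA1 stood at 5298 and 1259.9 CPM, against 586 and 1032 CPM, higher in each TGFB1 library. TTR overlapped between the groups (1671 and 468 CPM against 685 and 1536.5 CPM), and so did APOA2 (676 and 223 CPM against 652 and 225 CPM). These values rest on few cells and were not tested. With cells chosen by SERPINA1 alone, 5 of 12 gut markers were lower instead of 12 of 13, and the value for TFF3 was -3.71. The part of cells with gut markers in the hepatocyte results was not tested.

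Of 12 ductal markers 2 rose and 1 fell, close to the 18.8% of all genes that passed. KRT7, a keratin of bile duct epithelium, had 26.9 and 54.8 CPM in controls and 731 and 628 CPM with TGFB1 (log2 4.18, SE 0.45, edgeR adjusted p = 0.00126). At 1000 UMIs a cell it was detected in 2.69% and 4.002% of selected control cells and in 44.4% and 40.6% of selected TGFB1 cells (unthinned 4.86%, 17.9%, 86.8% and 78.8%), against 0.535% to 3.33% of the mesenchymal cells used as background at 1000 UMIs. CFTR, the chloride channel of ducts, was the marker that fell (103 and 169 CPM to 51 and 32.4 CPM, adjusted p = 0.026).

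The remaining 9 ductal markers did not pass edgeR's test, and several had controls that lay far apart. KRT19 had 549 and 1265 CPM in controls and 1834 and 1445 CPM with TGFB1 (log2 1.00, SE 0.47, edgeR adjusted p = 0.179), and EPCAM 546 and 889.8 CPM against 1424 and 1218 CPM (log2 1.04, SE 0.36, adjusted p = 0.0903). DESeq2 called both higher (adjusted p = 0.0465 for KRT19 and 0.00995 for EPCAM), and edgeR did so without control replicate 2 for KRT19 (adjusted p = 2.68e-05) and without either control replicate for EPCAM (adjusted p = 0.013 and 5.36e-05). SOX9 overlapped between groups at 231 and 145 CPM against 160.3 and 169 CPM (adjusted p = 0.976). Of 12 genes of simple epithelial keratins and junctions, 3 rose and 0 fell: VIM, CLDN7 and CDH1. CDH1, the E-cadherin of adherens junctions, stood at 257 and 203 CPM against 380.3 and 348 CPM (log2 0.86, SE 0.24, adjusted p = 0.0495) and missed the threshold under 7 alternative settings. CLDN7 rose by 1.34 (SE 0.35, adjusted p = 0.037) and was not called without TGFB1 replicate 1, without TGFB1 replicate 2 (adjusted p = 0.24 and 0.102) or under the strict selection rule. Of the 12 genes, 1 was called without either TGFB1 replicate, 6 were higher without control replicate 1 and 8 without control replicate 2.

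VIM (vimentin, the intermediate filament of mesenchymal cells and of many cultured epithelia) stood at 437 and 1119.8 CPM in controls and 5474 and 4749 CPM with TGFB1 (log2 2.86, SE 0.54, edgeR adjusted p = 0.0115). Of 6 transcription factors of epithelial-mesenchymal transition tested, 5 rose and 0 fell, all at low level. Summed over the 7 listed, they stood at 5.77 and 3.66 CPM in controls and 23.0 and 18.9 CPM with TGFB1. The mesenchymal cells held 285 to 363 CPM, and their part in the rise was not tested. SNAI2 went from 1.76 and 0.934 CPM to 9.35 and 10.1 CPM (log2 3.26, SE 0.33, adjusted p = 0.00106) and ZEB2 from 0 and 0.18 CPM to 1.98 and 1.59 CPM (log2 3.62, adjusted p = 0.00628), while SNAI1, at 1.51 and 1.04 CPM against 0.859 and 0.528 CPM, did not pass (adjusted p = 0.403). Selected TGFB1 cells thus held KRT7, VIM and E-cadherin transcripts at higher levels than selected control cells. VIM was detected in 97.3% and 96.3% of them at 1000 UMIs, against 29.7% and 52.1% of selected control cells.

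Matrix genes rose as a group. Of 22 tested, 19 rose and 0 fell, with a median log2 fold change of 2.38. FN1 (fibronectin) had 363 and 313 CPM in controls and 4561 and 4361 CPM with TGFB1 (log2 3.91, SE 0.34, edgeR adjusted p = 0.000669). With mitochondrial and ribosomal protein genes left out, it was among the 10 most counted genes of TGFB1 replicate 2. COL1A1, the α1 chain of type I collagen, had 42.4 and 27.9 CPM against 526 and 444 CPM (log2 3.998, SE 0.30, adjusted p = 0.000497), and LOXL2, a collagen cross-linking enzyme, 1.26 and 0.97 CPM against 17.3 and 14.8 CPM (log2 4.09, SE 0.29, adjusted p = 0.000486). TNC, SPARC and COL4A1 rose as well (TNC from 17.6 and 16.2 CPM to 231 and 208 CPM). COL6A1, LAMB1 and LAMC1 did not pass. Of 8 contractile genes, 6 rose: TAGLN went from 21.1 and 56.7 CPM to 707 and 515 CPM (log2 4.08, SE 0.54, adjusted p = 0.00285) and TPM1 from 378 and 493 CPM to 3468 and 3032 CPM (log2 3.07, adjusted p = 0.00168), whereas ACTA2, the smooth muscle actin of myofibroblasts, had 2.26 and 4.24 CPM against 9.62 and 6.21 CPM and missed the threshold (adjusted p = 0.0572).

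Mesenchymal markers moved in the same direction: 8 of 9 tested rose and 0 fell, and without TGFB1 replicate 1 it was 4 of 9. Their summed level over the 10 listed genes lay at 69.3 and 30.7 CPM in selected controls and at 239 and 129 CPM with TGFB1, against 9708 to 11193 CPM in the mesenchymal cells. Among the defining ones, DCN had 0.251 and 0.611 CPM in controls and 1.95 and 1.15 CPM with TGFB1, LUM 3.01 and 2.37 CPM against 8.46 and 7.84 CPM and PDGFRA 3.26 and 1.22 CPM against 4.59 and 4.49 CPM. The ratio of COL1A1 to COL3A1 counts in selected cells was 1.35 and 2.40 in controls and 6.74 and 10.5 with TGFB1, while in the mesenchymal cells it ran from 1.00 to 1.27. Endothelial and blood markers stayed near 0 in the selected cells, apart from EGFL7, CD68, CD74 and LYZ, of which LYZ (lysozyme, also an epithelial product) fell from 279.7 and 217 CPM to 43.1 and 32.8 CPM (log2 -2.51, adjusted p = 0.00109). Neural markers gave 2 higher and 1 lower of 6: NES rose (49.96 and 51.3 CPM to 244 and 261 CPM, adjusted p = 0.000976), STMN2 rose and DCX fell (17.6 and 15.5 CPM to 0.496 and 0.881 CPM, adjusted p = 0.000501).

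**Figure D4:**
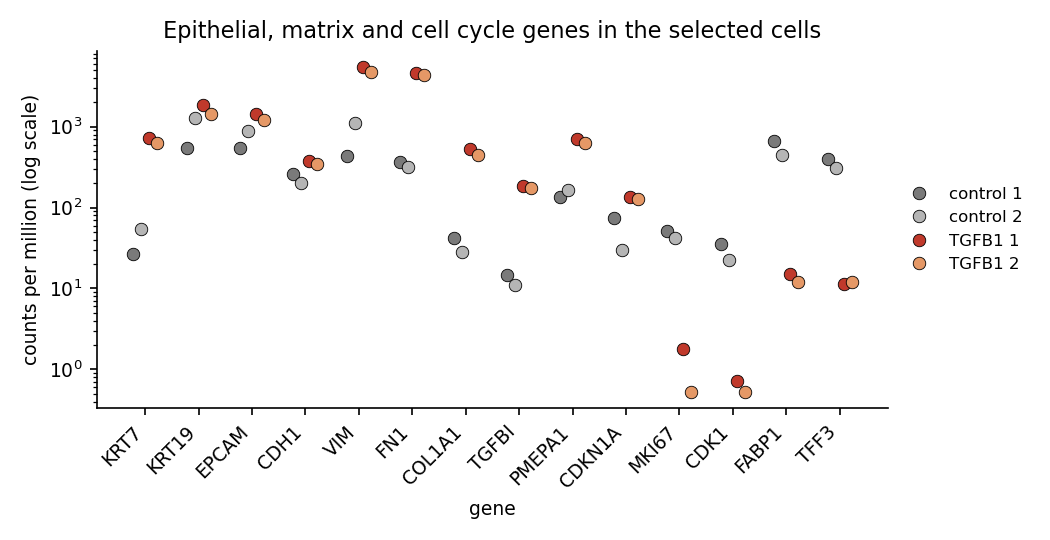
Level (CPM, log axis) of epithelial, matrix, TGF-β target and cell cycle genes in the selected cells, one point per library. KRT7, CDH1, VIM, FN1, COL1A1, TGFBI, PMEPA1 and CDKN1A are higher in both TGFB1 libraries, MKI67, CDK1, FABP1 and TFF3 are lower in both, and KRT19 and EPCAM show controls that lie far apart.

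TGF-β feedback and target genes gave 11 higher and 0 lower of 20 tested (median 1.39). LTBP2, a matrix protein related to the latent TGF-β binding proteins, had the largest fold (0.251 and 0.251 CPM to 15.3 and 17.3 CPM, log2 6.11, SE 0.36, edgeR adjusted p = 0.000435). TGFBI went from 14.6 and 11.2 CPM to 184 and 175 CPM (log2 4.01, SE 0.25, adjusted p = 0.000435). PMEPA1, a feedback inhibitor that sequesters receptor SMADs, went from 136 and 167 CPM to 696 and 637 CPM (log2 2.31, SE 0.29, adjusted p = 0.00236). TGFB1 itself rose (63 and 57.3 CPM to 179.8 and 182 CPM, adjusted p = 0.00239). SMAD7, the inhibitory SMAD, overlapped between the groups at 44.4 and 15.6 CPM against 32.7 and 37.7 CPM (log2 0.51, SE 0.40, adjusted p = 0.407), and CTGF overlapped too at 345 and 305 CPM against 309 and 354 CPM.

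Of 10 receptors and SMADs 2 were higher, 2 were lower and 6 did not pass (median -0.35), beside 9.3% higher and 9.47% lower over all genes, so the count says little of the family. Without control replicate 2, 6 were lower. The type I receptor TGFBR1 rose from 39.4 and 33 CPM to 99.7 and 97.6 CPM (log2 1.64, SE 0.21, edgeR adjusted p = 0.00268), and the coreceptor TGFBR3 fell from 9.29 and 4.42 CPM to 1.06 and 1.1 CPM (log2 -2.34, SE 0.39, adjusted p = 0.00705). The type II receptor TGFBR2 had 38.7 and 35.4 CPM against 22.9 and 19.9 CPM and missed the threshold (adjusted p = 0.0779). Among BMP and ID genes 3 of 11 rose and 3 fell: BMP7 rose (4.02 and 3.56 CPM to 11.4 and 11.8 CPM, adjusted p = 0.00297), ID2 and ID3 fell (ID2 from 348 and 173 CPM to 76.8 and 97.8 CPM, adjusted p = 0.03), and ID1 overlapped between the groups (435 and 768 CPM against 744 and 659 CPM). Without TGFB1 replicate 1, and also without TGFB1 replicate 2, 1 of these 11 genes was higher and 0 were lower.

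Cell cycle genes fell almost throughout the list. Of 17 genes of S phase and mitosis 16 fell and 0 rose, with a median of -3.75. MKI67 went from 51.2 and 41.9 CPM to 1.78 and 0.528 CPM (log2 -5.08, SE 0.46, edgeR adjusted p = 0.000723), CDK1, the mitotic kinase, from 35.6 and 22.2 CPM to 0.727 and 0.528 CPM (log2 -5.27, SE 0.33, adjusted p = 0.000435; log2 -5.88 in cells chosen by SERPINA1 alone), and TOP2A from 94.4 and 47.4 CPM to 2.25 and 0.925 CPM (log2 -5.22, SE 0.48, adjusted p = 0.000762). PCNA, at 56.2 and 55.1 CPM against 31 and 28.6 CPM, was the 1 member that did not pass (adjusted p = 0.0501). At 1000 UMIs, 10.8% and 8.24% of selected control cells held a UMI of MKI67, TOP2A, CDK1, CCNB1 or UBE2C, against 1.57% and 1.24% of selected TGFB1 cells (unthinned 15.3%, 20.0%, 8.71% and 6.42%). In the other cells the thinned shares were 15.1% and 10.5% against 2.36% and 2.91%, at median depths of 1214.5 to 6157 UMIs.

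Of 8 inhibitors of the cell cycle and growth arrest genes 5 rose and 2 fell, and their summed level overlapped between the groups (1166 and 1291 CPM in controls, 1256 and 1206 CPM with TGFB1). CDKN2A had 18.6 and 23.9 CPM in controls and 127 and 118 CPM with TGFB1 (log2 2.68, SE 0.27, edgeR adjusted p = 0.00101), and CDKN2B, a direct TGF-β target, 72.3 and 75 CPM against 362 and 357 CPM (log2 2.47, adjusted p = 0.00106). CDKN1A (p21) rose from 73.3 and 29.6 CPM to 137 and 127 CPM (log2 1.61, SE 0.37, adjusted p = 0.025). CDKN1C, an imprinted inhibitor, fell from 559 and 669 CPM to 155 and 185 CPM (log2 -1.68, adjusted p = 0.00759), and BTG2 fell too; neither was called without TGFB1 replicate 1 or without TGFB1 replicate 2.

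Of 14 chaperones of the endoplasmic reticulum (ER), 10 rose and 0 fell, with a median of 1.495. MANF had 130.1 and 197 CPM in controls and 835 and 591 CPM with TGFB1 (log2 2.28, SE 0.36, edgeR adjusted p = 0.00573), SDF2L1 55.2 and 105 CPM against 383 and 213 CPM (log2 2.04, SE 0.44, adjusted p = 0.019) and HSPA5, the BiP chaperone, 602 and 791 CPM against 1685 and 1287 CPM (adjusted p = 0.0384). TGFB1 replicate 1 was the highest library for each of these 3 genes. Without it 3 of the 14 were called, and without TGFB1 replicate 2 it was 7. Of 10 genes of the integrated stress response 4 rose and 0 fell, led by CHAC1 (1.76 and 2.48 CPM to 13.1 and 6.12 CPM, adjusted p = 0.0144) and PSAT1 (10.8 and 11.4 CPM to 43.3 and 20.2 CPM, adjusted p = 0.0212), and 1 was called without TGFB1 replicate 1, 9 without control replicate 1 and 7 without control replicate 2.

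Inflammation genes gave 6 higher and 0 lower of 15. CCL2, which attracts monocytes, went from 27.6 and 44 CPM to 348 and 282 CPM (log2 3.28, SE 0.35, edgeR adjusted p = 0.00127), CXCL8, which attracts neutrophils, from 113 and 89 CPM to 304 and 215 CPM (adjusted p = 0.0081) and IL32 from 133 and 198 CPM to 495 and 411 CPM (log2 1.61, adjusted p = 0.0144). CXCL2 (log2 -0.79, adjusted p = 0.0743) and CCL20 (log2 -0.72, adjusted p = 0.229) did not pass. Without TGFB1 replicate 1, 1 of the 15 was called, and without control replicate 2 it was 11 higher and 1 lower. Of 10 immediate early genes 1 rose (IER3) and 2 fell (FOS and EGR1), close to the 18.8% of all genes that passed, and none was called without TGFB1 replicate 1 or without TGFB1 replicate 2, when 2762 and 3341 genes in all had an unadjusted p under 0.05; DESeq2 called 2 higher and 2 lower with every library.

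Cholesterol synthesis gave 7 lower and 0 higher of 14. SREBF2, the transcription factor of the pathway, fell from 90.6 and 38.2 CPM to 14.5 and 16.3 CPM (edgeR adjusted p = 0.0132), and SQLE, an enzyme of the pathway, overlapped between the groups (91.1 and 107 CPM against 92.8 and 87.1 CPM). Without either TGFB1 replicate 3 were called, and in cells chosen by SERPINA1 alone it was 4 of 13. Lipid droplet and fatty acid oxidation genes gave 4 lower and 0 higher of 15: PLIN5, a lipid droplet coat of oxidative tissues, fell from 2.51 and 2.62 CPM to 0.231 and 0.352 CPM (log2 -3.004, adjusted p = 0.00355), while PLIN2, the common lipid droplet coat, overlapped (157 and 231 CPM against 192 and 178 CPM). Hypoxia genes split, 5 lower and 2 higher of 10, with VEGFA lower (449 and 259.8 CPM to 109 and 107 CPM, adjusted p = 0.0116) and EGLN3 higher (4.52 and 12 CPM to 46.3 and 47.8 CPM, adjusted p = 0.00655). Without TGFB1 replicate 1 the lower count was 1 of 10, and without TGFB1 replicate 2 it was 2.

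The 8 largest rises were taken among called genes of at least 50 CPM with no overlap between the groups. They included DHRS2, CXCL14, GAL, NKAIN4, MMP2, TRBC2 and MXRA5, with log2 fold changes from 5.50 to 7.89. DHRS2, a mitochondrial dehydrogenase (chromosome 14, 23630115 to 23645639 in GRCh38), had 0.502 and 0.215 CPM in controls and 62.1 and 53.1 CPM with TGFB1 (SE 0.37, edgeR adjusted p = 0.000435). GAL, the neuropeptide galanin (chromosome 11, 68683779 to 68691175), had 1.51 and 2.41 CPM against 328 and 273 CPM (log2 7.26, SE 0.37, adjusted p = 0.000435). CXCL14, a chemokine (chromosome 5, 135570679 to 135579279), had 1.51 and 0.108 CPM against 65 and 49.7 CPM (log2 7.58, SE 0.69, adjusted p = 0.000762). These 7 were close to 0 in both control libraries and present in both TGFB1 libraries, which follows in part from how they were chosen. MMP2, a gelatinase that cleaves matrix, went from 3.51 and 1.44 CPM to 98.6 and 109 CPM, and NKAIN4 from 0.502 and 1.36 CPM to 183 and 145 CPM. TRBC2, a constant region of the T cell receptor β chain, reached 74.3 and 44.7 CPM while the blood marker PTPRC did not exceed 0.044 CPM, and its near-identical copy TRBC1 makes the assignment of its reads uncertain.

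The 8 largest falls, chosen in the same way, were in NKX6-2, TOP2A, FABP1, CADPS, TFF3, APCDD1, IGF2 and SLC17A4, from -4.19 to -5.24. NKX6-2, a homeobox factor (chromosome 10, 132783179 to 132786147), had 60.0 and 115 CPM in controls and 2.48 and 1.67 CPM with TGFB1 (SE 0.46, edgeR adjusted p = 0.000672). IGF2, the imprinted fetal growth factor (chromosome 11, 2129112 to 2158391; a second, overlapping identifier carries the same symbol), had 352 and 311 CPM against 19.3 and 11.9 CPM (log2 -4.22, SE 0.32, adjusted p = 0.000518). APCDD1, an inhibitor of WNT signalling, had 149 and 97.5 CPM against 4.79 and 5.2 CPM, and CADPS, a regulator of dense-core vesicle release, 192 and 136 CPM against 4.56 and 5.11 CPM. For each of the 8 both TGFB1 libraries lay far under both controls, and a lack of overlap was a condition of their choice.

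Much of this was shared with the other cells. There 2694 of 15208 genes passed (17.7%), 1395 (9.17%) higher and 1299 (8.54%) lower, and DESeq2 called 1356 (8.92%) lower. The genes MKI67, FN1, KRT7 and ONECUT1 had log2 fold changes of -3.41, 2.60, 3.70 and -3.79, beside -5.08, 3.91, 4.18 and -3.61 in the selected cells. The difference between the effects was tested over both classes with the library as a term. Of 16229 genes 1271 (7.83%) passed, 733 (4.52%) with a higher and 538 (3.32%) with a lower value in the selected cells. DESeq2 called 377 (2.32%), of which 146 (0.9%) were higher and 231 (1.42%) lower. The count was 678 (309 higher, 369 lower) with mesenchymal cells removed from both classes, 179 (40 higher, 139 lower) with every cell thinned to 1000 UMIs, 921 (337 higher) without control replicate 1 and 935 (373 higher) without control replicate 2.

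Ductal and epithelial genes had the larger rise or the smaller fall in the selected cells at full depth. Few of these calls were left when every cell was thinned to 1000 UMIs. There the rule was applied anew at 5 of 1000 UMIs, a stricter limit than 0.3%, and 179 of 12642 genes were called in all. For 9 of 12 ductal markers and 8 of 12 keratin and junction genes the difference passed on the higher side and for none on the lower side, when 3379 genes in all had an unadjusted p under 0.05 and DESeq2 called 6 and 6 higher and 0 lower. KRT7 differed by 0.54 (SE 0.0983, edgeR adjusted p = 0.00202) and CDH1 by 0.38 (SE 0.0746, adjusted p = 0.00329). In thinned cells 0 of 12 ductal markers and 1 of 12 keratin and junction genes were called, and without control replicate 1 it was 6 and 2 higher. Removing mesenchymal cells left 6 of 12 ductal markers higher and 1 lower, and 3 of 12 keratin and junction genes higher. Beside this, the summed mesenchymal markers in the other cells went from 580 and 930 CPM in controls to 2175 and 2412 CPM with TGFB1, and their part in the remaining differences was not tested. Matrix genes differed on the higher side for 10 of 22 and on the lower side for 2 (5 and 4 without control replicate 2, 5 and 0 in thinned cells). COL1A1 stood at 298 and 432 CPM in other control cells and 1396 and 1637 CPM in other TGFB1 cells, and its difference was 1.96 (SE 0.20, adjusted p = 8.03e-06). Cell cycle genes differed on the lower side for 10 of 17 and on the higher side for 1, against 1 lower in thinned cells, with CDK1 at -2.08 (SE 0.26, adjusted p = 7.63e-05).

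The lists of hepatocyte genes gave unequal counts in the test of the difference, beside 7.83% of all genes. Of 13 secreted proteins 1 was higher and 2 were lower, of 9 apolipoproteins and MTTP 3 were lower, and of 10 coagulation genes 0 passed edgeR's test, as under DESeq2. Of 10 acute phase and complement genes 3 were lower, of 19 metabolic genes 5 were lower, and of 20 transcription factors 4 were higher and 3 lower. In thinned cells 1 of 10 secreted proteins was higher and 0 were lower, 2 of 9 apolipoproteins and MTTP, 1 of 8 acute phase and complement genes and 1 of 15 metabolic genes were lower, and of the 20 factors 0 were higher and 1 lower. APOA1 stood at 31.5 and 45.5 CPM in other control cells and 30.1 and 30.8 CPM in other TGFB1 cells, and its difference was -0.69 (SE 0.091, edgeR adjusted p = 0.000122). The secreted protein with the largest lower difference, named after its values were seen, was RBP4, the plasma carrier of retinol. It fell in the selected cells (4.02 and 4.6 CPM to 0.925 and 0.352 CPM, adjusted p = 0.00887) and rose in the other cells (0.592 and 0.982 CPM to 3.19 and 2.06 CPM, adjusted p = 0.0346), a difference of -4.38 (SE 0.42, edgeR adjusted p = 3.85e-06). Its level in the mesenchymal cells was 2.07 and 1.14 CPM in controls and 6.80 and 4.84 CPM with TGFB1, and their part in the rise was not tested. For ALB the difference was -0.03 (SE 0.47, adjusted p = 0.987) and for FOXA2 0.24 (SE 0.16, adjusted p = 0.442), and neither passed. CEBPA fell further in the selected cells (-1.005, SE 0.21, adjusted p = 0.00571).

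**Figure D5:**
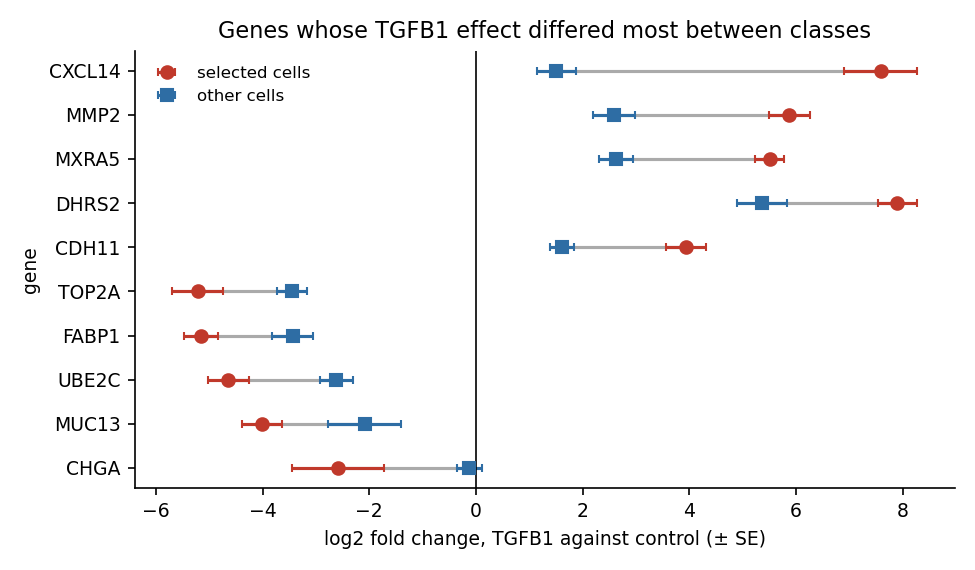
Log2 fold change with TGFB1 in the selected and the other cells (± SE of each fit, 2 against 2 libraries) for 10 genes. They are the 5 largest differences in each direction among called genes with a mean of at least 50 CPM in a group of either class. The 5 upper genes rose more in the selected cells, CXCL14 by a difference of 6.53; the 4 genes TOP2A, FABP1, UBE2C and MUC13 fell more, and CHGA had a wide error in the selected cells.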

How the data were processed

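Single-cell RNA-seq (10x 3′ v3) of 4 libraries was used. The deposited files hold whole-number UMI counts per gene and barcode, made by the authors with Cell Ranger 3.0.2 on GRCh38, per the submitters' processing notes, which name Scanpy too; no barcode had under 500 UMIs. Here counts were summed per library over the selected and over the other cells, and tested with edgeR 4.0.16 (TMM, filterByExpr, quasi-likelihood, 2 against 2 libraries, Benjamini-Hochberg); DESeq2 1.42.0, R 4.3.3, Python 3.11.15 and scipy 1.17.1 were also used. Differences between classes came from an interaction model over both classes with the library as a term. Named genes were the 8 largest rises and falls among called genes at 50 CPM or more in the higher group with no overlap between the groups. A fixed set and the leading genes of each list were named too. So were the 5 largest called differences in each direction at 50 CPM or more in a group of either class. Further list members are named for their role, chosen after their values were seen. The members and lists were chosen with earlier results of these data known. Some genes of these lists are not reported here. Gene positions are GENCODE v44 (GRCh38).

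Scrublet's automatic threshold marked 0% of cells, so doublets stayed in; an alternative removed 5.38% to 9.51% by score. Barcodes held medians of 1104 to 6692 UMIs over 17137690 to 52928255 UMIs a library. Intervals are exact (Clopper-Pearson) and cover counting error only. Tested on simulated data for the selected cells (15831 genes), edgeR recovered 26.3% of 2-fold and 85.6% of 4-fold changes with 7 false calls. For the difference (16133 genes) it recovered 5.15% and 52.5% with 2. Each simulated profile was drawn alone, with a fixed spread and no library effect. The real classes share libraries, so the rates for the difference may not hold for these data. In the real selected cells 15.8% of genes differed by more than 2-fold between the control replicates and 2.90% between the TGFB1 replicates. The rates for the selected cells may therefore not hold either. Alternatives were other filters and rules, thinning, doublet or mesenchymal cell removal, DESeq2, a replicate block, each rule gene left out and each library left out.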

Additional observations from a re-analysis of the deposited data

Results flagged for a closer look

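For 10 genes the TGFB1 effect differed between the selected and the other cells by the test of the difference itself (edgeR, interaction of cell class and treatment, with the library as a term). Higher in the selected cells were CXCL14 by 6.53 on the log2 scale (SE 0.37), MMP2 by 3.77 (SE 0.24), MXRA5 by 3.16 (SE 0.20), DHRS2 by 2.87 (SE 0.52) and the cadherin CDH11 by 2.60 (SE 0.23). Lower were CHGA at -2.08 (SE 0.47), MUC13 at -2.05 (SE 0.43), UBE2C at -2.01 (SE 0.19), FABP1 at -1.74 (SE 0.22) and TOP2A at -1.71 (SE 0.25).

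CXCL14, MMP2, MXRA5 and CDH11 were already present in the other control cells, at 8.96 and 17.1, 14.9 and 31.2, 9.63 and 16.1 and 51.5 and 56.3 CPM, and near 0 in the selected control cells. With TGFB1 they stood at 65 and 49.7, 98.6 and 109, 54.2 and 61.1 and 61.8 and 44.9 CPM in the selected cells and at 38.3 and 28.2, 119 and 129.7, 65.6 and 76.3 and 144 and 144 CPM in the other cells. DHRS2 was near 0 in both control classes (0.502 and 0.215 CPM and 0.254 and 1.02 CPM), and its difference was 0.06 without control replicate 2 and 0.52 in thinned cells. CHGA, the chromogranin of endocrine cells, had 192 and 30.8 CPM in selected control cells and 24.3 and 6.21 CPM with TGFB1, and in the selected cells themselves it missed the threshold with every library and the rule as given (edgeR log2 -2.59, adjusted p = 0.0796). It was called lower under 9 alternative settings, among them the replicate block (adjusted p = 2.02e-09) and selection by SERPINA1 alone (log2 -4.20, adjusted p = 0.0147). In cells chosen by SERPINA1 alone the change of MUC13 was -2.93 in place of -4.01. The difference for MUC13 was -0.38 without TGFB1 replicate 2. In thinned cells UBE2C and TOP2A were not called (adjusted p = 0.307 and 0.0692). DESeq2 called MXRA5 and UBE2C of the 10 and not the other 8, of which CDH11 (adjusted p = 0.0505), CXCL14 (0.0608) and MMP2 (0.126) came nearest.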

How the results depend on the processing

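The share of selected cells was higher with TGFB1 under every alternative run except the rule without SERPINA1, where the difference was -6.99 percentage points; leaving out a library gave 8.73 to 38.1 points. For the selected cells the count of changed genes, 2967, was 4575 with no low-count filter and 1635 in thinned cells, and 1525 to 7158 without a library. For the other cells the count, 2694, was 4496 with no low-count filter and 1395 to 8635 without a library. For the difference between classes the count, 1271, was 2138 with no filter, 377 with DESeq2, 417 under the strict selection rule, 179 in thinned cells and 678 with mesenchymal cells removed, and 921 to 1116 without a library. The share of these that were higher moved with the fit: 1568 higher and 570 lower with no filter, 139 and 278 under the strict rule, 40 and 139 in thinned cells. Thinned cells and the strict rule leave fewer UMIs and also put other cells into each class, and the causes were not tested.

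Replicate numbers do not show pairing: with the replicate block 3087 genes were called in selected and 2860 in other cells, and deviations of same-numbered libraries correlated at -0.196 and -0.314. A crossed pairing, added after seeing the data, called 5125 and 5897. Of 79 called named genes 79 kept their direction under the alternatives fixed at the start and 11 lost their call at least once. These genes were counted because they were called in the same libraries, so a kept direction adds little. Selection by SERPINA1 alone, also added later, kept the direction of 78 of the 78 it tested and the call of 75. It holds 43.6% and 58.0% of the selected control cells and 95.9% and 93.5% of the selected TGFB1 cells, so it is no separate sample.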

Other observations

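The selected cells of the 4 libraries can be set beside the same rule in the other shaker libraries, as values only. Those have other controls and depths, and the untreated and OA libraries also have another list of genes. The rule took 66.0% and 67.5% of kept cells in the controls for PA and 52.2% and 39.6% in the controls for OA. Untreated shaker organoids gave 45.6% and 64.8%, so control replicate 1 of the TGFB1 experiment, at 21.5%, was the lowest of the 8 shaker libraries labelled as controls or with no treatment. In organoids of ultra-low attachment plates the rule took 0.532% to 10.5% of kept cells. Those were collected on day 21 or day 34, and their counts list 58721 genes against 33538 here, so the plate is not the only difference.

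Genes were ranked by level with mitochondrial and ribosomal protein genes left out. In the selected control cells the serine protease inhibitor SPINK1 then came next after MALAT1 (13220 and 8038 CPM). The trypsinogen genes PRSS1 and PRSS2 lay above the other cells in every library. For PRSS2 it was by 0.88 to 2.14 on the log2 scale (414 and 414 CPM in controls, 273 and 261 CPM with TGFB1). PRSS1 and PRSS2 are near-identical copies, so the split between them is uncertain. CTSE and TSPAN8 likewise lay above the other cells in all 4 libraries, by 1.06 to 1.65 and by 0.95 to 1.49. After TGFB1 the most counted genes in the same ranking, other than MALAT1, included FTL, S100A11, IGFBP2 (5831 and 5471 CPM) and VIM.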
